A study of Equus caballus with 40 samples.

Results

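The 24 arrays described here came from pellets of equine chondrocytes that were under interleukin-1β (IL-1β) and a serum preparation at the same time, 12 of them harvested at 48 h and 12 at 2 h. The series holds 40 arrays in all. The 24 were chosen by sample title: AES_48h, AES24h_48h and ACS_48h for the late state and AES_2h, AES24h_2h and ACS_2h for the early one, with 4 arrays in each of these 6 groups. The question was which transcripts set the late state of serum-treated pellets apart from their early state, across all 30559 probe sets of the array and with the kind of serum as a covariate.

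AES is autologous equine serum and ACS is autologous conditioned serum. The labels leave AES24h unexplained, and serum doses are not described here. Pellets of all 6 groups had first been exposed to recombinant equine IL-1β, a cytokine of joint inflammation, at 5 ng/ml for 48 h. They then received IL-1β with AES, IL-1β with AES24h or IL-1β with ACS, and 48 h and 2 h count from that point. The early pellets were thus already inflamed, and no serum-treated pellet was free of IL-1β. The other 16 arrays came from pellets with IL-1β alone (4 at 48 h and 4 at 2 h) and from control pellets without IL-1β (4 at 48 h and 4 at 2 h), and served here to set the change under sera beside the change without them. Each RNA sample came from 1 pellet. Whether the 4 replicates were separate cultures or animals is left unsaid in the labels. The p-values therefore rest on a spread among samples that may be technical.

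Serum carries growth factors that act on receptors at the cell surface and switch on the ERK branch of MAP kinase signalling. Immediate early genes, such as those of the FOS, EGR and NR4A transcription factors, answer first, followed by genes whose products damp the signal, such as the dual specificity phosphatases and Sprouty proteins. Entry into the cell cycle comes later. In cartilage the chondrocyte maintains a matrix of type II collagen and aggrecan, and IL-1β acts through NF-kB on proteases, chemokines, prostaglandin synthesis and nitric oxide synthesis.

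All values are log2 expression values, so that a difference of 1 is a 2-fold difference, and each fold change given is 48 h minus 2 h. The medians of the 24 arrays lay between 4.35 and 4.59, and pairs within a group had correlations over all probe sets of 0.962 to 0.983. The values carry no detection call, so a group mean below the lowest array median of the series (4.345) is described as not shown to be above background, and a fold against it gives a direction only. Replicates 2 and 4 of AES at 48 h stood apart on the first principal component (16.3% of the variance), at −56.04 and −50.79. The other 10 arrays at 48 h lay between −22.73 and 40.58. At the opposite end were replicate 1 of AES24h and ACS at 48 h (40.58 and 36.66) and of AES and AES24h at 2 h (44.82 and 46.15). Replicate 1 of ACS at 2 h was at 23.41 and that of AES at 48 h at −3.87. This component thus did not separate the times. The chondrocyte label was borne by the markers. The cartilage protein COMP averaged 12.22 over the 24 arrays, type II collagen (COL2A1) 9.59, COL11A1 9.46 and aggrecan (ACAN) 8.95, and among 9 chondrocyte markers only MATN3 was not shown to be above background. Of 14 leukocyte markers 12 were not shown to be above background, PTPRC and LCP1 among them, and their mean level per array lay between 3.28 and 3.59 at 48 h and between 3.34 and 3.55 at 2 h. CD68, a lysosomal protein of macrophages and of other cells, was the only leukocyte marker called, at −0.39 (adjusted p = 0.00574). Red cell, endothelial and muscle markers were likewise mostly below this limit, whereas the fibroblast protease FAP, at 10.77, and cathepsin K (CTSK) were high. In pellets measured in bulk, fewer cells of a type and less RNA per cell cannot be told apart.

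The late state differed from the early one at 2226 of 30559 probe sets (7.28%) at an adjusted p of 0.05, of which 1107 (3.62%) were higher at 48 h and 1119 (3.66%) lower. Without replicates 2 and 4 of AES at 48 h the count was 2137. Most changes were modest, and 119 higher and 123 lower probe sets were called with at least a 2-fold difference. At 36 probe sets (0.118%) all 12 arrays at 48 h lay above all 12 at 2 h, and at 69 (0.226%) all lay below. Among the gene lists described below, that of mitosis had the highest share of called rises. Among the immediate early transcription factors 14 of 22 fell and 0 rose, and in the cartilage matrix list 14 of 31 fell and 2 rose. Among 16661 genes, each taken by 1 probe set, 5.20% were called higher and 4.55% lower, and the median change was −0.0041. These are the values against which the gene lists below are read, since the lists were not tested as sets. All lists were drawn up with earlier results of these data known, so their counts are no independent evidence of a direction.

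Among genes without overlap between the times, the largest falls were those of DUSP5 and RGS16, both of which damp signals. DUSP5, a nuclear phosphatase that inactivates ERK, lay between 4.78 and 5.86 at 48 h (median 5.42) and between 7.41 and 9.43 at 2 h (median 8.69). All 12 late arrays were below all 12 early ones, and the change was −3.38 (SE 0.16, adjusted p = 1.31e-12), or 10.4-fold. RGS16, which shortens signalling by G proteins, lay between 3.99 and 5.69 at 48 h (median 4.90) and between 6.91 and 8.48 at 2 h (median 7.71), again without overlap, a change of −2.80 (SE 0.17, adjusted p = 1.22e-10). DUSP6, the cytoplasmic counterpart of DUSP5, fell by 1.51 and did not overlap either. Sprouty 2 (SPRY2), an inhibitor of receptor kinase signalling, fell by 1.91 to a mean of 6.16 ± 0.56 at 48 h, against 8.07 ± 0.80 at 2 h (SD, n = 12 each), and its arrays overlapped. The receptor kinase inhibitor ERRFI1 fell by 1.17 and the calcineurin regulator RCAN1 by 1.16. In the list of MAPK and G protein feedback genes as a whole, 8 of 18 measured members fell and 1 rose, with a median change of −0.26.

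Immediate early transcription factors were mostly lower at 48 h. Of 22 measured members 14 fell and 0 rose, the median change was −0.87, and 6 of the 14 had no overlap between the times. EGR1, a zinc finger factor induced by growth factors, ranged from 6.44 to 7.53 at 48 h (median 6.97) and from 8.57 to 10.48 at 2 h (median 9.08), a change of −2.15 (SE 0.20, adjusted p = 1.51e-07). EGR2 fell by 1.62, the stress-responsive factor ATF3 by 1.66 and the Krüppel-like factor KLF4 by 1.31, all without overlap. FOS, a subunit of AP-1, averaged 5.77 ± 0.35 at 48 h and 6.68 ± 0.58 at 2 h (SD, n = 12 each), a smaller and overlapping fall of 0.91 (adjusted p = 0.00242). The orphan nuclear receptors moved the same way. NR4A2 lay between 5.29 and 7.33 at 48 h (median 6.37) and between 6.85 and 9.24 at 2 h (median 8.45), with a change of −2.04 (SE 0.26, adjusted p = 1.39e-05). Its relative NR4A1 fell by 1.25, to between 4.24 and 4.96 at 48 h, against 5.45 to 6.71 at 2 h, and did not overlap. The mean of the list was highest in replicate 1 of each serum kind at 2 h, at 7.45 with AES, 7.44 with AES24h and 7.34 with ACS, while the other 9 early arrays lay between 6.57 and 7.04. All 12 late arrays lay lower still, between 5.92 and 6.22.

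The list of early serum regulators, like the others, was drawn up with earlier results of these data known and is no independent evidence of its direction. Of its 18 measured members 13 fell and 0 rose, with a median change of −0.72. REL, an NF-kB subunit, lay between 5.78 and 7.02 at 48 h (median 6.45) and between 7.59 and 8.41 at 2 h (median 7.97), a change of −1.54 (SE 0.12, adjusted p = 1.45e-08). PPP1R15A, which restarts translation after stress, fell by 1.00 and, like REL, did not overlap. UGCG, which makes glucosylceramide, fell by 1.28, the T-box factor TBX3 by 1.03 and the repressor PRDM1 by 0.80. Beyond the lists, MID1, a ubiquitin ligase on microtubules, ranged from 3.74 to 4.91 at 48 h and from 5.85 to 6.66 at 2 h. The change of −2.01 gives a direction only, its late mean being below the background limit. The ligand EFNB2, which binds Eph receptors, fell by 1.54 and the LIM domain protein LMCD1 by 1.53, both without overlap.

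**Figure D1:**
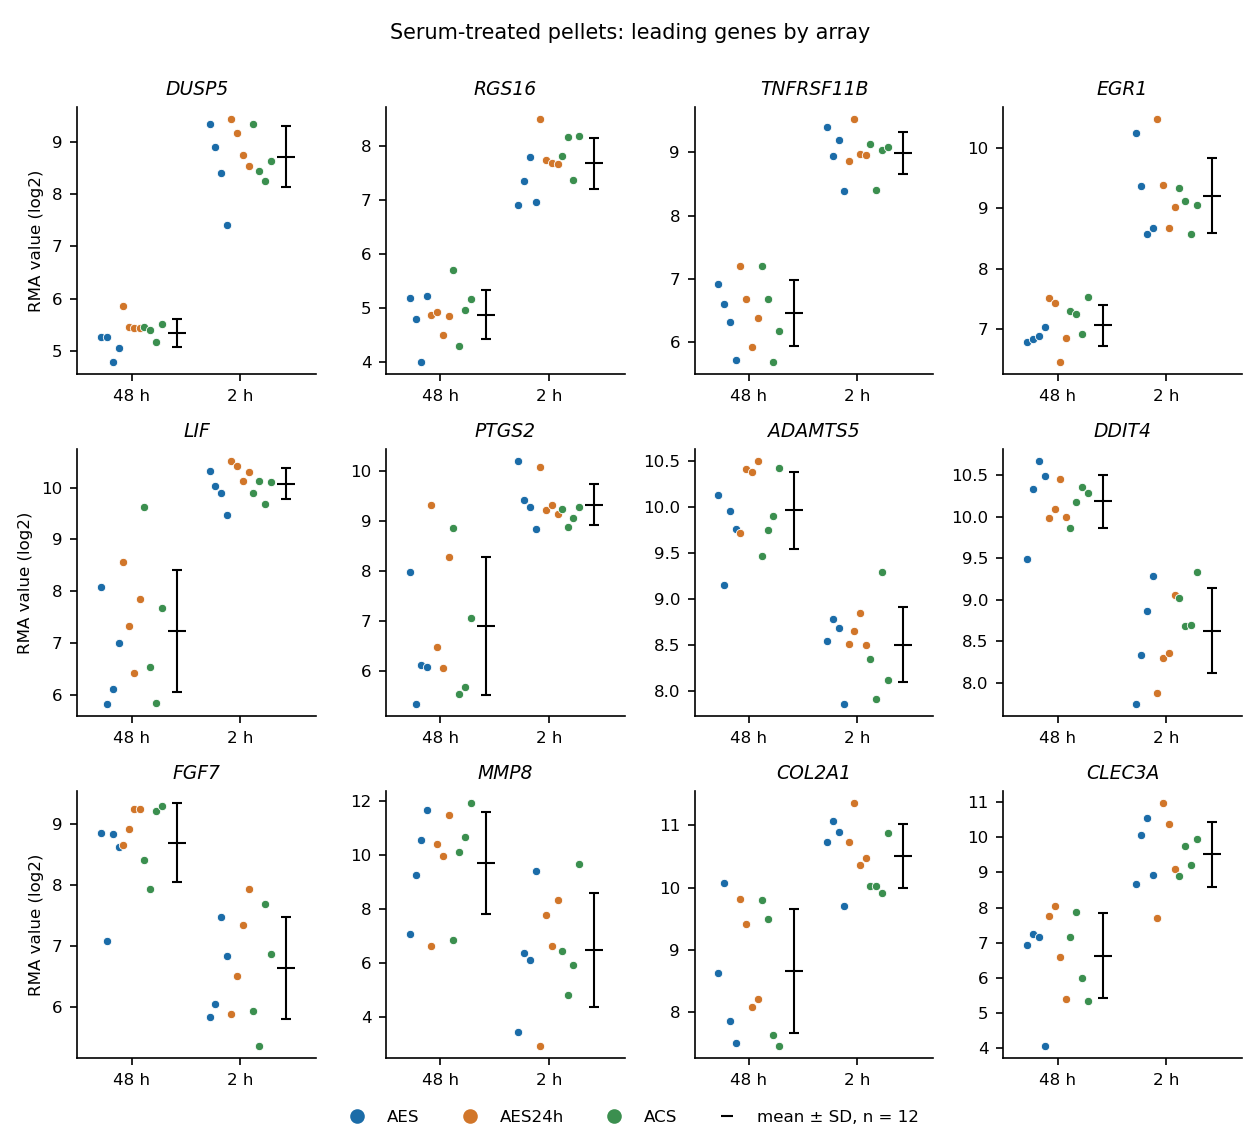
Log2 RMA values of 12 genes in the 24 serum-treated pellets, with 48 h left of 2 h in each panel; each point is 1 array, coloured by serum kind, and the bars give the mean and SD of 12 arrays. The early and late arrays of DUSP5, RGS16, TNFRSF11B, EGR1 and DDIT4 do not overlap. Those of PTGS2 and COL2A1 spread widely at 48 h, and those of MMP8 at both times.

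Genes of mitosis and cytokinesis rose nearly without exception. Of 32 measured members 31 rose and 0 fell, with a median change of 1.39, and without the AES arrays 2 and 4 all 32 rose (median 1.54). UBE2C, a ubiquitin-conjugating enzyme of mitotic exit, averaged 4.67 ± 0.91 at 48 h and 3.14 ± 0.24 at 2 h (SD, n = 12 each), a change of 1.53 (SE 0.25, adjusted p = 0.000341). The microtubule bundling protein PRC1 ranged from 3.77 to 7.52 at 48 h (median 6.45) and from 3.24 to 4.07 at 2 h (median 3.71). CENPF, a kinetochore protein, rose by 1.86, the checkpoint kinase BUB1 by 1.20, and the proliferation marker MKI67 by 1.58. For 28 of the 32 members the early mean lay below the background limit, so the rise has a direction but no exact fold. All 32 overlapped between the times, with the late arrays spread widely. Within a single serum kind 0 of the 32 were called, and with the AES24h arrays left out 11 were. The list mean lay between 3.28 and 3.45 in all 12 early arrays. At 48 h it was 5.10, 4.52, 5.23 and 3.39 in the 4 AES arrays, 4.02, 5.68, 5.29 and 4.97 with AES24h, and 3.52, 5.58, 5.99 and 3.60 with ACS, so that AES replicate 4 was no higher than the early pellets and ACS replicates 1 and 4 were only slightly higher.

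Of 25 measured members of the DNA replication and S phase list 14 rose and 0 fell, with a median change of 0.41. RRM2, a subunit of the enzyme that makes deoxyribonucleotides, averaged 7.14 ± 0.78 at 48 h and 5.69 ± 0.33 at 2 h (SD, n = 12 each), a change of 1.45 (SE 0.23, adjusted p = 0.000195). Thymidine kinase TK1 rose by 0.61, and MCM5 and MCM3 of the replicative helicase by 0.85 and 0.79. In AES replicate 4 and in ACS replicates 1 and 4 at 48 h the list mean was 4.99, 5.20 and 5.10, against 4.91 to 5.18 in the early arrays. The nuclear lamina protein TMPO rose by 0.96 and RHNO1, which takes part in the DNA damage checkpoint, by 1.16, both without overlap. The early mean of RHNO1 was not shown to be above background.

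Genes tied to growth arrest moved in both directions, with 3 of 14 higher and 3 lower. SESN1, a sestrin that restrains mTORC1, lay between 5.42 and 6.37 at 48 h (median 5.94) and between 4.48 and 5.24 at 2 h (median 4.85), a change of 1.06 (SE 0.10, adjusted p = 3.82e-07) without overlap. DDIT4, another inhibitor of mTORC1 and a member of the hypoxia list, lay between 9.49 and 10.66 at 48 h and between 7.75 and 9.33 at 2 h. It rose by 1.55 (SE 0.17, adjusted p = 1.36e-06) and was the largest non-overlapping rise of a gene with an assigned name. BTG2, an antiproliferative gene induced early by growth factors, fell by 0.95 without overlap. The kinase PLK2 fell by 2.16 and the stress sensor GADD45B by 1.01.

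**Figure D2:**
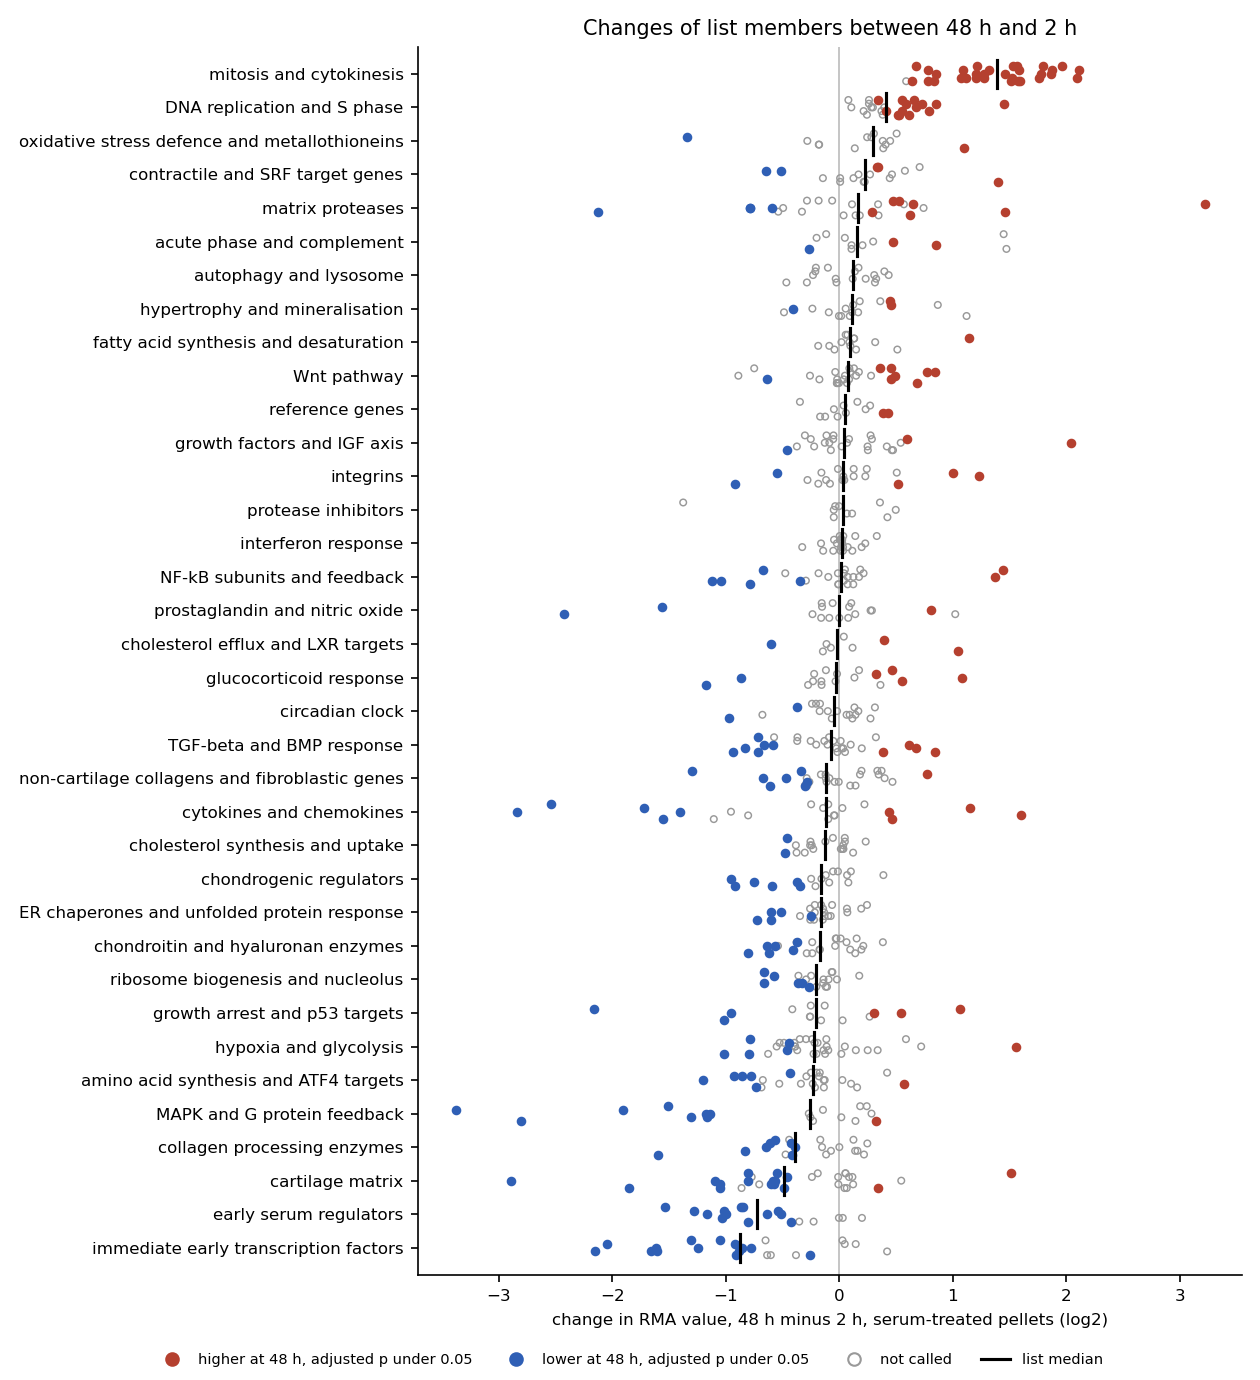
Change from 2 h to 48 h in serum-treated pellets (log2, 48 h minus 2 h) for each measured member of 36 gene lists; red and blue points passed an adjusted p of 0.05, open points did not, and the black bar is the list median. Mitosis stands furthest to the right with a median of 1.39, and the immediate early factors furthest to the left with −0.87.

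Matrix proteases did not move as a block. Of 26 measured members 7 rose and 4 fell, and the median change was 0.16. ADAMTS5, an aggrecanase, lay between 9.15 and 10.49 at 48 h (median 9.93) and between 7.85 and 9.29 at 2 h (median 8.52), a change of 1.46 (SE 0.15, adjusted p = 1.34e-06) or 2.75-fold. MMP14, a membrane-bound collagenase, rose by 0.65. MMP8, the neutrophil collagenase, was picked out after its values were seen, and lay between 6.64 and 11.90 at 48 h (median 10.25) and between 2.93 and 9.65 at 2 h (median 6.41). It rose by 3.22 (SE 0.77, adjusted p = 0.00906) with much overlap and a wide spread at both times. The stromelysin MMP3 fell by 0.59, to a mean of 11.78 ± 0.35 at 48 h, against 12.38 ± 0.21 at 2 h (SD, n = 12 each). The elastase MMP12 fell by 2.13 and the urokinase receptor PLAUR by 0.79. The collagenases MMP13 and MMP1 were among the brightest transcripts at both times. MMP13 averaged 12.60 ± 0.50 at 48 h and 11.86 ± 0.68 at 2 h and missed the threshold at 0.74 (adjusted p = 0.0505). MMP1 had a change of 0.35 (adjusted p = 0.573), the aggrecanase ADAMTS4 one of 0.63 (adjusted p = 0.175) and the inhibitor TIMP1 one of 0.42 (adjusted p = 0.0662). None of the 10 measured protease inhibitors was called, and without the AES arrays 2 and 4 there were 2, both higher.

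Inflammatory mediators split. Of 20 measured cytokines and chemokines 5 fell and 4 rose. Osteoprotegerin (TNFRSF11B), the decoy receptor of RANKL, lay between 5.68 and 7.21 at 48 h (median 6.49) and between 8.39 and 9.52 at 2 h (median 9.01), without overlap and with a change of −2.54 (SE 0.17, adjusted p = 1.13e-09) or 5.80-fold. RANKL itself (TNFSF11), looked up after the values were seen, rose by 1.15 (adjusted p = 0.0145) from an early level not shown to be above background, with 2.89 to 6.44 at 48 h and 2.77 to 3.68 at 2 h. The cytokine LIF lay between 5.82 and 9.63 at 48 h (median 7.17) and between 9.47 and 10.51 at 2 h (median 10.11), a change of −2.84 (SE 0.32, adjusted p = 2.81e-06). IL11, a relative of LIF that was also looked up afterwards, rose by 1.60 (adjusted p = 0.0218), and its range of 7.18 to 11.56 at 48 h overlapped that of 6.84 to 9.89 at 2 h. The chemokines CCL20 and CXCL1 fell by 1.41 and 1.55. IL6 averaged 8.50 ± 1.39 at 48 h and 9.60 ± 0.48 at 2 h (adjusted p = 0.105), and CXCL8 averaged 7.81 ± 1.37 at 48 h and 8.76 ± 0.94 at 2 h (adjusted p = 0.251), neither of them called. The receptor antagonist IL1RN was not shown to be above background at either time.

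Among the NF-kB subunits and feedback genes 5 of 24 fell and 2 rose, and the list median was 0.02. NFKB1, which encodes the p50 subunit, lay between 6.86 and 7.62 at 48 h and between 7.89 and 8.27 at 2 h, a fall of 0.79 (SE 0.08, adjusted p = 3.82e-07) without overlap. The inhibitor-like factor NFKBIZ fell by 1.04 and TNIP3, a feedback inhibitor, by 1.12. The IL-1 decoy receptor IL1R2 rose by 1.37, to 10.69 ± 0.64 at 48 h, against 9.32 ± 0.80 at 2 h (SD, n = 12 each). In prostaglandin and nitric oxide synthesis 2 of 17 genes fell and 1 rose. Cyclooxygenase-2 (PTGS2) lay between 5.33 and 9.32 at 48 h (median 6.29) and between 8.83 and 10.19 at 2 h (median 9.25), a change of −2.43 (SE 0.38, adjusted p = 0.000175). Its early arrays were close together and its late ones were not, with 3 of them at 8.28 or more. The inducible nitric oxide synthase NOS2 fell by 1.56, and PTGES, which turns the cyclooxygenase product into prostaglandin E, rose by 0.81. Of 12 acute phase and complement genes SERPING1 and C7 rose, by 0.85 and 0.47, and CD55 fell by 0.27, with C7 at 2 h and CD55 at both times not shown to be above background. The calls of C7 and CD55 were lost without single arrays (highest adjusted p 0.0653 and 0.0884).

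Of 31 measured cartilage matrix genes 14 fell and 2 rose, with a median change of −0.49. COL2A1, the collagen of hyaline cartilage, lay between 7.45 and 10.07 at 48 h (median 8.42) and between 9.69 and 11.35 at 2 h (median 10.60), a change of −1.85 (SE 0.30, adjusted p = 0.000278) or 3.61-fold. COL11A1 and COL11A2, which form mixed fibrils with type II collagen, fell by 0.80 and 1.05, and COL9A1, which sits on those fibrils, by 0.57. CLEC3A, a lectin of the cartilage matrix, had the largest fall of the list, to a mean of 6.62 ± 1.21 at 48 h, against 9.51 ± 0.93 at 2 h (SD, n = 12 each), a change of −2.89 (SE 0.42, adjusted p = 6.46e-05). Chondromodulin (CNMD), an antiangiogenic cartilage protein, fell by 1.05. ACAN was not called, at 8.60 ± 0.61 at 48 h and 9.31 ± 0.55 at 2 h (adjusted p = 0.059), and COMP had a change of 0.07 (adjusted p = 0.904). The 2 that rose, picked out after their values were seen, were versican (VCAN) at 1.51 (adjusted p = 0.000605) and decorin (DCN) at 0.34 (adjusted p = 0.0336).

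Enzymes that modify collagen and proteoglycans were listed apart. Of 21 collagen processing enzymes 8 fell and 0 rose, with a median change of −0.39. COLGALT2, which adds galactose to collagen, lay between 4.51 and 5.75 at 48 h (median 4.87) and between 5.92 and 7.34 at 2 h (median 6.46), a change of −1.60 (SE 0.19, adjusted p = 5.79e-06) without overlap. The prolyl hydroxylase P4HA2 fell by 0.57, the crosslinking enzyme LOXL2 by 0.65 and the lysyl hydroxylase PLOD2 by 0.43. Of 24 chondroitin and hyaluronan enzymes 6 fell and 0 rose. XYLT1, which starts chondroitin sulfate chains, lay between 7.23 and 7.85 at 48 h and between 8.16 and 8.68 at 2 h, a fall of 0.81 (SE 0.08, adjusted p = 7.44e-07) without overlap. CHSY1, which lengthens the chains, fell by 0.64, the sulfotransferase CHST3 by 0.62 and PAPSS1, which makes the sulfate donor, by 0.41. Without the AES arrays 2 and 4 the falls numbered 6 and 4 in these lists.

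Of 17 chondrogenic regulators 6 fell and 0 rose, with a median change of −0.16. TRPS1, a GATA-type repressor of the growth plate, lay between 9.82 and 10.15 at 48 h and between 10.40 and 10.91 at 2 h, a fall of 0.60 (SE 0.07, adjusted p = 2.24e-06) without overlap. NFATC2 fell by 0.96, CREB5 by 0.92 and NFATC1 by 0.76. SOX9, the master regulator of chondrocytes, averaged 5.14 ± 0.20 at 48 h and 5.49 ± 0.19 at 2 h (SD, n = 12 each), a change of −0.35 (adjusted p = 0.0158). Among non-cartilage collagens and fibroblastic genes 7 of 28 fell and 1 rose. COL1A1, the main collagen of fibrous tissue, had 10.79 ± 0.52 at 48 h and 10.64 ± 0.51 at 2 h (adjusted p = 0.802). COL6A3 fell by 0.61, COL6A2 by 0.34, THBS2 by 0.67 and periostin (POSTN) by 1.30, and COL14A1 rose by 0.77 from a level not shown to be above background. Of 17 hypertrophy and mineralisation genes DLX5 and DLX6 rose, by 0.46 and 0.45 (DLX6 from an early level not shown to be above background), and the pyrophosphate transporter ANKH fell by 0.41. The mean of the 9 chondrocyte markers lay between 6.84 and 7.79 at 48 h and between 7.58 and 8.37 at 2 h, whereas none of 7 synovial fibroblast and 8 bone cell markers was called. The part of any change in cell types in these falls was not tested.

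**Figure D3:**
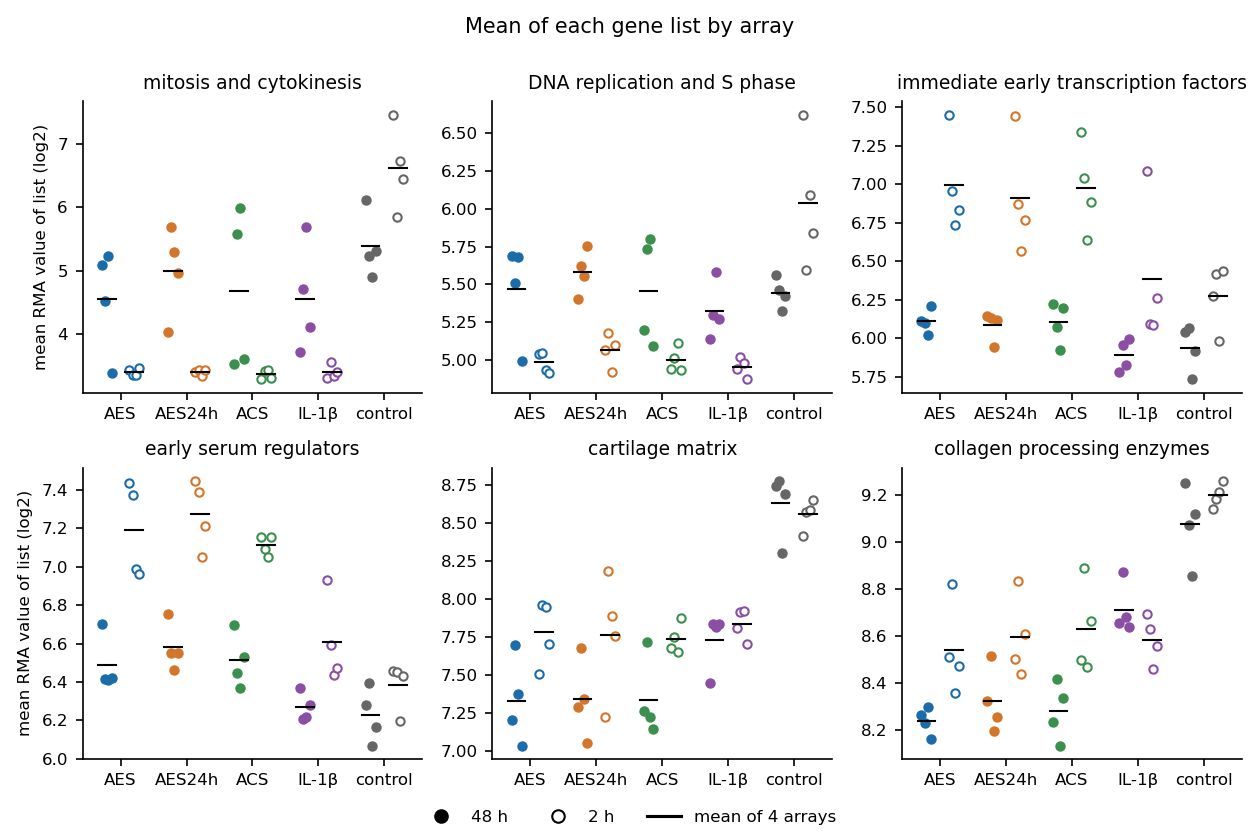
Mean log2 RMA value of 6 gene lists in each of the 40 arrays, by treatment, with 48 h (filled) left of 2 h (open) and a bar at the mean of 4 arrays. Mitosis genes sit between 3.28 and 3.45 in every early serum-treated array and spread from 3.39 to 5.99 at 48 h, while immediate early factors reach at most 6.22 in a late one.

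Growth factor and adhesion genes changed singly more than as groups. FGF7, a mitogen that mesenchymal cells release for epithelia, lay between 7.09 and 9.28 at 48 h (median 8.84) and between 5.37 and 7.93 at 2 h (median 6.68), a change of 2.04 (SE 0.28, adjusted p = 3.31e-05). It was 1 of 2 genes that rose among 24 growth factor and IGF axis genes, with IGFBP6 at 0.60, and the insulin receptor substrate IRS2 fell by 0.46. In the TGF-β and BMP list 4 of 28 rose and 6 fell. LTBP2, a matrix protein related to the latent TGF-β binding proteins, rose by 0.84 without overlap, while TGFBI fell by 0.93, PMEPA1 by 0.71 and SKIL by 0.66. The Wnt list had 7 of 28 members higher and 1 lower, led by the co-receptor LRP6 at 0.77, the receptor FZD4 at 0.69 and the nuclear effector TCF7 at 0.46. The receptor FZD8 fell by 0.64. Among 19 integrins ITGB3 lay between 5.15 and 6.17 at 48 h and between 3.96 and 5.07 at 2 h, a rise of 1.00 without overlap. ITGB8 rose by 1.23 and ITGB5 by 0.52, and the laminin receptor chain ITGA6 fell by 0.92. In the contractile list SRF, the serum response factor itself, fell by 0.65 and its target vinculin (VCL) by 0.51, while smooth muscle actin (ACTA2) rose by 1.40 and MYH9 by 0.34.

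Several genes that belong to no list also rose without overlap. LOC100067869, to which the annotation gives no name, lay between 7.20 and 9.55 at 48 h (median 7.77) and between 3.36 and 6.18 at 2 h (median 5.23), a change of 2.87 (SE 0.31, adjusted p = 1.79e-06). EDNRA, the endothelin A receptor, lay between 5.27 and 7.51 at 48 h and between 4.29 and 5.21 at 2 h, a change of 1.52. The angiopoietin ANGPT4 rose by 1.39 (SE 0.13, adjusted p = 1.65e-07), to between 5.95 and 7.53 at 48 h, against 5.00 to 5.77 at 2 h. CMTM3 rose by 1.31 and the collagen-binding receptor ANTXR1 by 1.09. NYNRIN rose by 1.12 and CAMKK2, a calcium-activated kinase upstream of AMPK, by 0.91. PDGFRB, the receptor for platelet-derived growth factor and the only called gene among 11 endothelial and mural markers, rose by 0.79, with 7.08 to 7.83 at 48 h and 6.09 to 7.06 at 2 h. Of the 11, 9 lay below the background limit, PECAM1 and CDH5 among them, and NOTCH3 was just above it at a mean of 4.49. The NADPH oxidase NOX4 rose by 0.53.

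Of 25 amino acid synthesis and ATF4 target genes 6 fell and 1 rose, with a median change of −0.23 that was −0.63 with AES, −0.02 with AES24h and −0.43 with ACS. SLC7A5, an importer of large neutral amino acids, lay between 6.90 and 8.76 at 48 h and between 8.88 and 9.67 at 2 h, a fall of 1.20 (SE 0.15, adjusted p = 1.11e-05) without overlap. STC2 fell by 0.93 and DDIT3 by 0.77, and the amino acid transporter SLC38A2 rose by 0.57. Of 23 chaperone and unfolded protein response genes 5 fell and 0 rose, with HSPA5, the main chaperone of the endoplasmic reticulum, at −0.72, HERPUD1 at −0.61, DNAJB9 at −0.60 and CREB3L2 at −0.51. Ribosome biogenesis genes had 6 of 19 lower and 0 higher, among them GNL3 and WDR43, which fell by 0.66 and 0.57 without overlap, NOP58 by 0.67 and RRP12 by 0.36. In the hypoxia and glycolysis list 5 of 33 fell, including BNIP3 by 1.01, PDK1 by 0.80 and the lactate transporter SLC16A3 by 0.79, while DDIT4 was the only member that rose.

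Of 19 cholesterol synthesis genes HMGCS1 and TM7SF2 fell, by 0.48 and 0.46, and of 14 fatty acid genes GPAM, which starts glycerolipid synthesis, rose by 1.14. The fatty acid list had a median change of 0.09. In the list of 8 cholesterol efflux and LXR target genes 2 rose and 1 fell: the cholesterol exporter ABCA1 rose by 1.05 and the receptor NR1H3 by 0.39, and MYLIP fell by 0.60. Among 14 oxidative stress and metal genes, whose median change was 0.29, heme oxygenase (HMOX1) rose by 1.10 and the zinc exporter SLC30A1 fell by 1.34. Of 17 glucocorticoid response genes 4 rose, with PDK4 at 1.08 and MAOA, whose early level was not shown to be above background, at 0.55, and SGK1 and ERRFI1 fell, SGK1 by 0.87. The clock repressor BHLHE41 fell by 0.97 without overlap, and NFIL3 fell by 0.37, a call lost without either of 2 arrays (highest adjusted p 0.0529). In the list of 23 interferon response genes and that of 17 autophagy and lysosome genes 0 were called. Of 12 reference genes ACTB and RPL13A rose, by 0.43 and 0.39.

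The kinds of serum were then set against each other. Taken alone, the change with time was called at 195 probe sets with AES (0.638%; 0.183% higher and 0.455% lower), 159 with AES24h (0.520%; 0.219% and 0.301%) and 105 with ACS (0.344%; 0.118% and 0.226%), and 40 probe sets for 37 genes were called with all 3. These shared calls were 10 rises, among them ADAMTS5, SESN1, EDNRA, ANGPT4 and CMTM3, and 30 falls, among them DUSP5, EGR1, EGR2, RGS16, TNFRSF11B, NFKB1 and XYLT1. The counts without single arrays fell as low as 75, 46 and 49, and with AES arrays 2 and 4 left out the AES count was 49. Of the 195 AES calls 37.4% were also AES24h calls and 24.6% ACS calls. Of the 2226 pooled calls 2218 had 1 sign in all 3 kinds. Those calls were selected on the pooled change over the same arrays, so a shared sign is no independent evidence that the kinds agree. DUSP5 changed by −3.43 with AES, −3.43 with AES24h and −3.29 with ACS, and TNFRSF11B by −2.59, −2.53 and −2.48.

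No probe set passed a test of the difference in time change among the 3 kinds (limma F test, lowest adjusted p 0.349, 1181 probe sets at an unadjusted p under 0.05). Between pairs, 0 probe sets were called for AES24h minus AES, for ACS minus AES and for ACS minus AES24h, with 1133, 1756 and 799 at an unadjusted p under 0.05. Over the 1625 genes called in the pooled comparison the median half-width of the 95% interval of such a difference was 0.57. Smaller differences than that were mostly beyond the reach of 4 arrays. These intervals are per gene and unadjusted. A call needed adjustment over all probe sets, so differences larger than 0.57 could be missed as well. PTGS2 changed by −3.05 with AES, −1.90 with AES24h and −2.33 with ACS, and the interval of AES24h minus AES ran from −0.79 to 3.10. NR4A2 changed by −2.33, −1.31 and −2.49, and ACS minus AES24h ran from −2.42 to 0.08. For DUSP5 the interval of ACS minus AES ran from −0.73 to 1.00. The data thus do not place any gene in 1 serum kind alone, nor do they show that the kinds act alike.

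The change under sera was next compared with the change under IL-1β alone over the same hours. With IL-1β alone 2 probe sets (0.00654%) were called, and 2134 had an unadjusted p under 0.05. Both calls were lower at 48 h: DUSP5 at −2.57 (adjusted p = 0.00734) and the phosphate carrier SLC20A1 at −1.01 (adjusted p = 0.0349). Each was lost without some single array (highest adjusted p 0.0815 and 0.342, limma). This count rests on 4 arrays per time, against 12 in the pooled comparison of sera. With all 40 arrays fitted, AES, AES24h and ACS, also with 4 per time, gave 505, 341 and 280. The time change under sera differed from that under IL-1β alone at 15 probe sets (0.0491%), 10 in the upward (0.0327%) and 5 in the downward direction (0.0164%). ADAMTS5 showed the largest difference, 2.42 (SE 0.30, adjusted p = 8.07e-05). It averaged 9.96 ± 0.42 at 48 h and 8.50 ± 0.41 at 2 h under sera (SD, n = 12 each), whereas under IL-1β alone it was 7.19, 6.23, 7.44 and 6.71 at 48 h and 8.04, 8.08, 7.79 and 7.47 at 2 h. The aggrecanase thus went up under sera while every late array with IL-1β alone lay below every early one.

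ANGPT4 (difference 1.47), ANTXR1 (1.28), GPAM (1.27), SESN1 (1.08), CMTM3 (1.06), CAMKK2 (0.93), RBMS2 and AHCYL1 rose under sera and had changes between −0.19 and 0.25 under IL-1β alone. ATP6V0D2, a subunit of the vacuolar proton pump, differed by 1.94 (adjusted p = 0.0399), but its change under sera was itself not called. It was 3.83 ± 0.22 at 48 h and 5.28 ± 0.84 at 2 h under IL-1β alone (SD, n = 4 each). That late mean lay below the background limit, so the difference gives a direction only. Its call was lost without each of 25 single arrays (highest adjusted p 0.16, limma). In the other direction RGS16 differed by −2.29 (SE 0.33, adjusted p = 0.000893). Under sera it averaged 4.87 ± 0.45 at 48 h and 7.67 ± 0.47 at 2 h, and under IL-1β alone 5.83 ± 0.39 at 48 h and 6.34 ± 0.50 at 2 h.

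COLGALT2 differed by −1.84 (adjusted p = 0.0399), with 6.93, 7.58, 7.36 and 6.87 at 48 h and 6.75, 7.02, 7.50 and 6.50 at 2 h under IL-1β alone. XYLT1 (−0.83), the ubiquitin ligase RNF19B (−0.77) and the centrosomal protein SSX2IP (−0.89) also fell under sera and had changes of 0.02 to 0.32 under IL-1β alone. This count depended on single arrays. It ran from 2 without replicate 2 of IL-1β alone at 2 h to 24 without replicate 2 of AES at 48 h. Replicate 1 of IL-1β alone at 2 h held higher early genes than its 3 partners, with DUSP5 at 9.25 against 6.49 to 6.76 and an immediate early transcription factors mean of 7.09 against 6.09 to 6.27. Without it the count was 4.

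**Figure D4:**
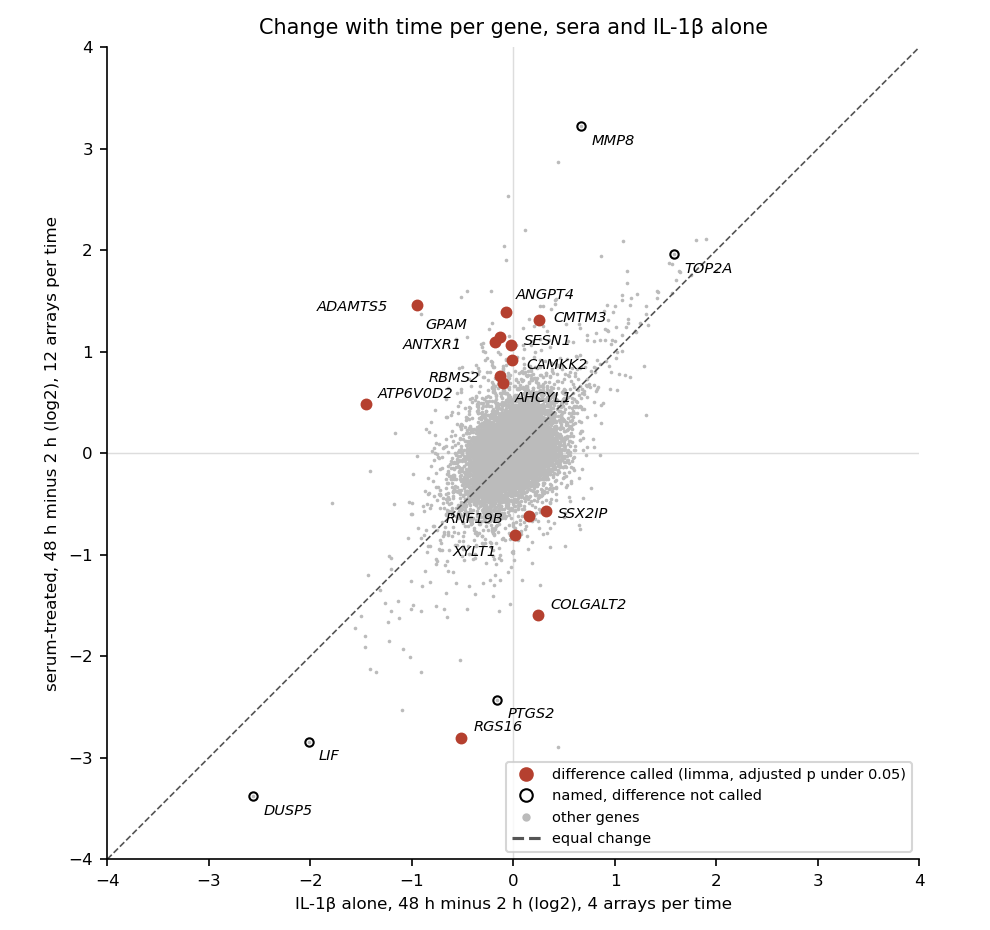
Change with time per gene (log2, 48 h minus 2 h) in serum-treated pellets (vertical axis) and in pellets with IL-1β alone (horizontal axis), 1 point per gene; red points mark the 15 genes whose changes differ at an adjusted p of 0.05, and the dashed line marks equal change. ADAMTS5 lies at 1.46 under sera and −0.95 under IL-1β alone, RGS16 at −2.80 and −0.52.

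The mitosis and immediate early lists had no member called in this comparison. Mitosis and cytokinesis genes had a median change of 1.39 under sera and 1.15 under IL-1β alone, and the list mean under IL-1β alone was 3.71, 4.70, 5.69 and 4.10 at 48 h and 3.31, 3.55, 3.34 and 3.39 at 2 h. TOP2A, the topoisomerase of dividing cells, changed by 1.96 under sera and by 1.58 under IL-1β alone. LIF changed by −2.84 and −2.02 and DUSP5 by −3.38 and −2.57, with no call for the difference. PTGS2 (−2.43 and −0.16), CLEC3A (−2.89 and 0.44), COL11A1 (−0.80 and −0.04) and FGF7 (2.04 and −0.09) also missed it, at adjusted p values of 0.48, 0.0887, 0.39 and 0.327.

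Against control pellets, which had neither serum nor IL-1β, the time change under sera differed at 233 probe sets (0.762%), 201 upward (0.658%) and 32 downward (0.105%). Of the 32 listed genes of mitosis and cytokinesis 29 were called, all upward, with a median difference of 2.69, and the list changed by a median of 1.39 under sera and of −1.24 in control pellets. PRC1 differed by 3.50, TOP2A by 3.45, the microtubule regulator STMN1 by 3.44, ANLN by 3.34 and CENPF by 3.23. For 28 of the 32 listed genes the early mean under sera lay below the background limit, so their differences give a direction only. The mean of the mitosis and cytokinesis list was 6.12, 5.24, 4.90 and 5.31 at 48 h and 7.47, 5.85, 6.73 and 6.46 at 2 h in control pellets, above all 12 early serum-treated arrays at both times. Late serum-treated and late control pellets overlapped, at 3.39 to 5.99 and 4.90 to 6.12. DNA replication genes had 10 of 25 called, all upward.

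Among the 32 downward differences against control, TNFRSF11B differed by −2.35 (adjusted p = 0.00364), NR4A2 by −2.22 (adjusted p = 0.0152), RGS16 by −2.14 (adjusted p = 0.00108), COLGALT2 by −1.81 (adjusted p = 0.00744) and TNIP3 by −1.34 (adjusted p = 0.0394). In control pellets TNFRSF11B was 9.75, 9.69, 8.49 and 9.47 at 48 h and 9.91, 9.62, 9.40 and 9.19 at 2 h, all above the highest late serum-treated array at 7.21. ADAMTS5 differed from control as well, by 2.13 (adjusted p = 0.000344). ID1, an inhibitor of differentiation factors and a target of BMP signalling, was the 1 probe set (0.00327%) called over time in control pellets, at −1.08 (adjusted p = 0.0245). That call was lost without each of 6 single arrays (highest adjusted p 0.32, limma) and with only the control arrays fitted. Under sera ID1 rose by 0.39, and the difference was 1.46 (adjusted p = 0.000344). Without replicate 1 of control at 2 h 76 probe sets were called in this comparison, and without each of 3 other control arrays between 135 and 144.

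**Figure D5:**
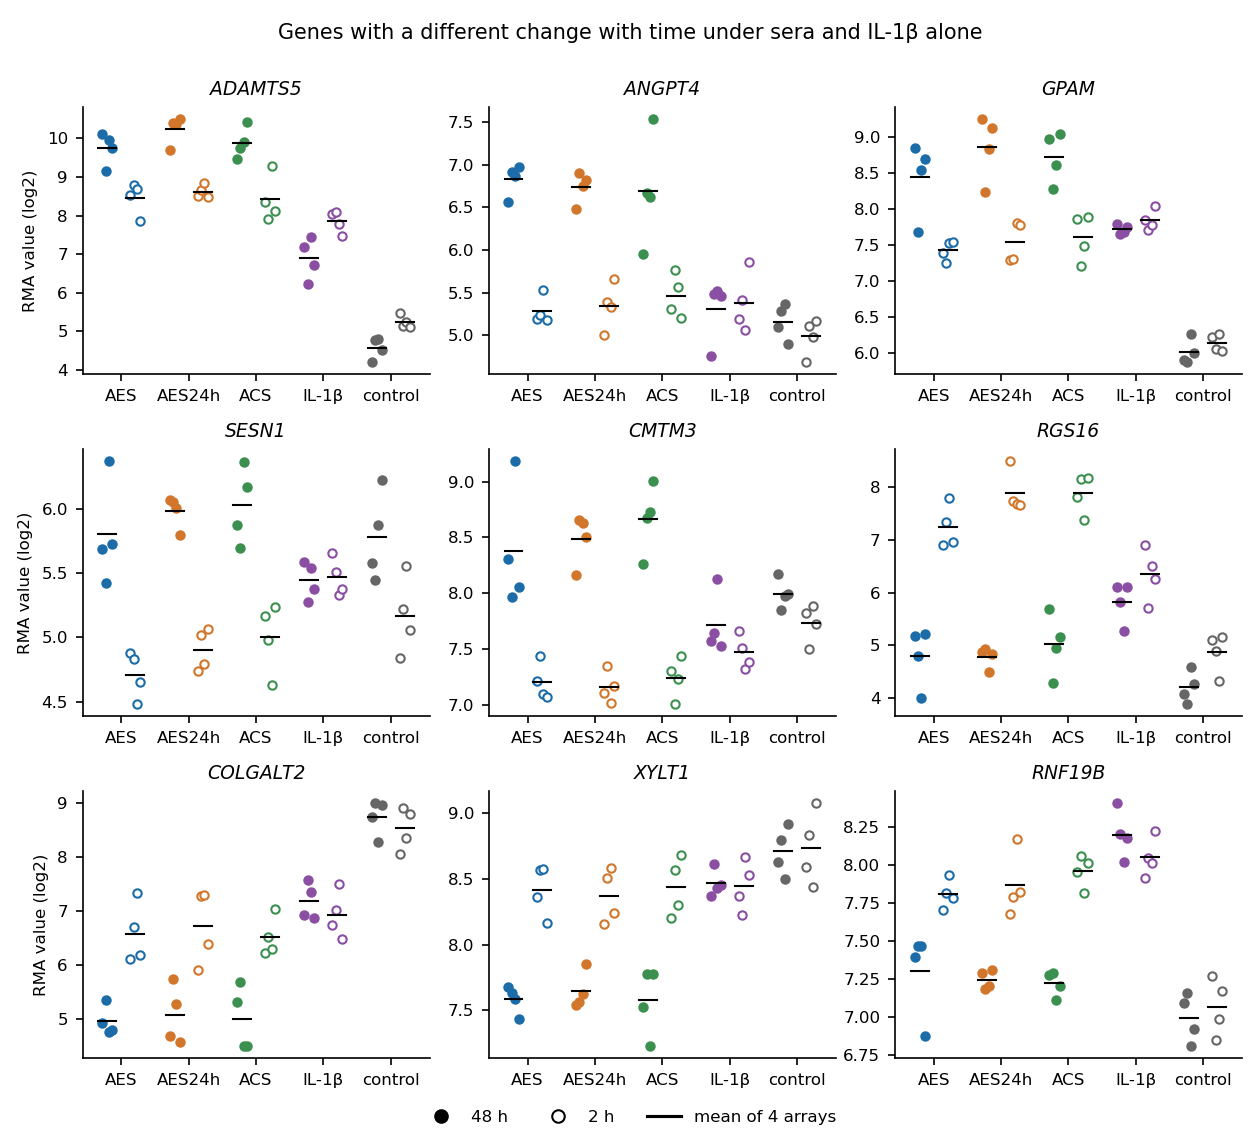
Log2 RMA values of 9 genes in all 40 arrays, by treatment, with 48 h (filled) left of 2 h (open) and a bar at the mean of 4 arrays. Under all 3 sera ADAMTS5, ANGPT4, GPAM, SESN1 and CMTM3 are higher at 48 h and RGS16, COLGALT2, XYLT1 and RNF19B lower. The means under IL-1β alone differ between the times by less than 1 in each gene, with ADAMTS5 lower at 48 h. Those of XYLT1 and RNF19B differ by less than 1 under sera as well.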

How the data were processed

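RNA of 40 pellets was hybridised to Affymetrix equine whole-transcript arrays, from 100 ng of total RNA per the labels' protocols. The authors deposited a log2 expression value for each probe set on each array. The submitters' processing notes name RMA, limma and Affymetrix Expression Console, whose versions are not stated here. RMA corrects background, quantile-normalises and summarises probes, which would reduce a shift shared by most transcripts. The table held 30559 probe sets. Of these, 16789 had 1 symbol in the platform annotation, which can be old, and gave 16661 genes; 343 had several symbols and 13427 are unnamed here. The probe set with the highest mean stood for a gene with several (111 genes).

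The time comparison was fitted with limma 3.58.1 in R 4.3.3 to 24 arrays, with serum kind as covariate (20 residual degrees of freedom), moderation with an intensity trend, and Benjamini-Hochberg adjustment over all probe sets at 0.05. Serum kinds were compared in a fit of 6 groups (18 degrees of freedom), IL-1β alone and control in a fit of 10 groups (30). These fits were run on simulated data with independent errors for each array. That run cannot show how the fits behave where same-numbered arrays deviate together, as they did here in part. Groups came from the sample titles. Genes named were the 12 highest and 12 lowest called without overlap, up to 4 called members of each list, 24 genes named in any case, and the 5 highest and 5 lowest of each other comparison. The members and the 36 response and 7 marker lists were chosen with earlier results of these data known. Alternatives were the replicate number as a block, filters, normalisation, weights, other array sets and arrays left out.

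The arrays' number limits precision. Same-numbered arrays were not treated as pairs, since no label says what the replicate number marks. Their deviations from the group means did go together in part. Of 12 same-numbered pairs of times within a serum kind, 8 correlated above 0.1. Over any 2 of the 6 groups 32 of 60 same-numbered pairs did, against 13 of 180 pairs with different numbers. The main fit leaves this structure out.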

Additional observations from a re-analysis of the deposited data

Results flagged for a closer look

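Within 230 groups of 4 arrays, 14 values (6.09%) stood far from their 3 partners by Dixon's criterion at its 95% critical value, where chance gives about 1 in 20. Replicate 1 with AES24h was low for ADAMTS5 at 48 h, at 9.71 against 10.38 to 10.49, and high for RGS16 at 2 h, at 8.48 against 7.67 to 7.73. ANGPT4 was high in replicate 3 of AES at 2 h, at 5.53 against 5.18 to 5.24, and low in replicate 1 of IL-1β alone at 48 h, at 4.76 against 5.46 to 5.52. SSX2IP was low in replicate 2 of AES at 48 h, at 5.28 against 5.72 to 5.75, and in replicate 3 of control at 2 h, at 6.65 against 7.01 to 7.06. RNF19B was low in replicate 4 of AES at 48 h, at 6.88 against 7.39 to 7.47. TNFRSF11B was low in replicate 2 of ACS at 2 h, at 8.41 against 9.04 to 9.13. ANTXR1 was low in replicate 1 of control at 2 h, at 7.75 against 8.35 to 8.41, and STMN1 was high in replicate 2 of IL-1β alone at 2 h, at 3.28 against 2.83 to 2.90. The remaining 4 were list means. Immediate early transcription factors were low in replicate 3 of AES24h at 48 h, at 5.94 against 6.12 to 6.15. Early serum regulators were high in replicate 1 of AES at 48 h, at 6.70 against 6.41 to 6.42, and low in replicate 3 of control at 2 h, at 6.19 against 6.43 to 6.46. Cartilage matrix genes were low in replicate 1 of IL-1β alone at 48 h, at 7.44 against 7.81 to 7.83.

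The change with time under sera differed from that under IL-1β alone by limma's test of the difference. ADAMTS5 differed by 2.42, ATP6V0D2 by 1.94 (a direction only), ANGPT4 by 1.47, ANTXR1 by 1.28 and GPAM by 1.27 upward. RGS16 differed by −2.29, COLGALT2 by −1.84, SSX2IP by −0.89, XYLT1 by −0.83 and RNF19B by −0.77. Of these 10 genes 8 lost the call without some single array, and 9 without all arrays of some replicate number. Leaving out single arrays took the highest adjusted p to 0.16 for ATP6V0D2, ANTXR1 and COLGALT2, to 0.163 for SSX2IP and to 0.193 for XYLT1. It reached 0.0899 for RNF19B, 0.0763 for GPAM and 0.0692 for ANGPT4. Against control pellets the same test gave differences of 3.50 for PRC1, 3.45 for TOP2A, 3.44 for STMN1, 3.34 for ANLN and 3.23 for CENPF. For 28 of the 32 listed mitosis genes the early mean under sera lay below the background limit, so their differences give a direction only. The test gave −2.35 for TNFRSF11B, −2.22 for NR4A2, −2.14 for RGS16, −1.81 for COLGALT2 and −1.34 for TNIP3. Of these 10 genes 5 lost the call without some single array, and all 10 without all arrays of some replicate number. TNIP3 reached an adjusted p of 0.165 without replicate 2 of control at 48 h. The highest values without 1 array were 0.0795 for NR4A2, 0.0781 for ANLN and 0.0507 for PRC1 and COLGALT2.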

How the results depend on the processing

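The count of 2226 probe sets under sera lay between 1849 and 2411 without any 1 array, and between 1061 and 2343 without all arrays of a replicate number. It was 45 where a change of more than 1.5-fold was tested for, 1237 without AES, 750 without AES24h and 978 without ACS; fewer arrays were fitted in the last 3. Of 142 called genes named for this comparison 3 (C7, CD55 and NFIL3) lost the call without some single array and 46 without all arrays of some replicate number, SOX9, POSTN, ACTA2, COL9A1, MKI67, NOX4 and HMOX1 among them. Without AES 27 lost it, without AES24h 38, without ACS 30, and with the 1.5-fold test 113; 29 kept it in every setting. No result reversed.

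With the replicate number as a block the count under sera was 3110, and the others were 768 for AES, 473 for AES24h, 347 for ACS, 77 for sera minus IL-1β alone, 401 for sera minus control, 21 for IL-1β alone and 9 for control. As a random block these were 404, 273, 223, 36 (sera minus IL-1β alone) and 10 (control), with 1 for ACS minus AES24h. The labels do not say what the numbers mark, although 21 of 24 arrays correlated best with those of their own number.

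The AES, AES24h and ACS counts (195, 159 and 105) were 505, 341 and 280 with all 40 arrays fitted, with 1 for ACS minus AES24h, and 97, 304 and 241 with array weights. They ranged between 75 and 230, 46 and 183, and 49 and 130 without 1 array, and between 10 and 168, 14 and 134, and 19 and 156 without a replicate number. In the upper 60% of probe sets AES had 339 and ACS 190, and with arrays centred on their medians AES24h had 93. Without replicates 2 and 4 of AES at 48 h, AES had 49. The test among the 3 kinds gave 0 to 1 without 1 array, ACS minus AES24h 0 to 1, and AES24h minus AES 0 to 1 without a number.

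Array weights gave 30 for sera minus IL-1β alone, 439 for sera minus control, 14 for IL-1β alone, 53 for control and 1 for ACS minus AES24h. Centring on medians gave 5 for sera minus IL-1β alone, 1 for IL-1β alone and 0 for control. Quantile normalisation again gave 1 for IL-1β alone and 2 for control. Fitting only the groups compared gave 6 for sera minus IL-1β alone, 0 for IL-1β alone and 0 for control, and leaving out AES arrays 2 and 4 gave 23 for sera minus IL-1β alone. Without 1 array or number, sera minus IL-1β alone ranged from 1 to 24, sera minus control from 6 to 311, IL-1β alone from 0 to 3 and control from 0 to 18. The cause of these shifts was not tested. Low signal limits mitosis genes, 28 of 32 of which had an early mean not shown to be above background.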

Other observations

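Several further genes with large changes were named for single serum kinds or picked out after their values were seen. ABCC9, a subunit of ATP-sensitive potassium channels, lay between 6.46 and 8.34 at 48 h (median 7.51) and between 3.81 and 6.96 at 2 h (median 5.04), a change of 2.19 (SE 0.29, adjusted p = 2.06e-05). The chemokine CXCL13 spread from 3.63 to 9.86 at 48 h and from 3.02 to 6.42 at 2 h. Its change was 2.97 with AES, 1.11 with AES24h and 3.54 with ACS, and its early mean was not shown to be above background. SRGN, a proteoglycan of secretory granules, rose by 1.54, the matrix protein SNED1 by 1.94 and LRRC17 by 1.79. FGL2 and SEL1L3 rose by 1.90 and 1.60 from early levels not shown to be above background. EPHX1, an epoxide hydrolase, rose by 1.10 and ENPP5 by 1.25. RACGAP1 and SHCBP1, which act in cytokinesis, rose by 1.71 and 1.68 from early levels below the same limit.

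Among further falls, the Notch ligand JAG1 averaged 5.11 ± 0.74 at 48 h and 6.61 ± 0.67 at 2 h (SD, n = 12 each), a change of −1.50 (limma, adjusted p = 0.000767). KLF5, a Krüppel-like factor, lay between 5.59 and 6.67 at 48 h and between 6.89 and 8.62 at 2 h, without overlap. The ubiquitin ligase NEDD4 fell by 1.28 and the cytokine TNFSF8 by 1.30. TIMD4 and LYVE1 fell by 1.93 and 1.49 to late levels not shown to be above background. The probe sets annotated to the microRNA genes MIR221 and MIR222 fell by 1.46 and 1.56. They were read on a whole-transcript array, which does not tell mature microRNA from its precursor.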
